A study of Mus musculus with 35 samples.

Results

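Lin28, Hmga1, Hmga2, Igf2bp1, Igf2bp2, Igf2bp3 and Dicer1 were followed on every array of a study that reprogrammed adult mouse mesenchymal cells. The 7 genes were read by all probes that carried one of these gene names in the scanner files, which gave 14 of the 41174 gene probes on the array. These genes made up 7 of the 27962 gene names on the array. All 14 probes passed the filter, which asked that each array in 1 or more of 7 groups rate the probe well above background, and the tests covered 27623 probes. Lin28, Hmga1 and Igf2bp2 had 1 probe each, Dicer1 had 2, and Hmga2, Igf2bp1 and Igf2bp3 had 3 each.

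The study induced iPS cells from 3 adult sources taken from 6-week-old mice that carried 1 copy of a Nanog-GFP-Puro reporter. PαS cells were bone marrow mesenchymal stem cells sorted as CD45-Ter119-PDGFRα+Sca-1+, OP cells were osteo-progenitors sorted from the same gate as PDGFRα-Sca-1-, and TTF were fibroblasts of the tail tip. Each source received pMX retroviruses for Oct3/4, Sox2 and Klf4 (3F) or for these and c-Myc (4F), together with a DsRed virus, and 5 GFP-positive, DsRed-negative clones were picked for each source and factor set. The 35 arrays were of 30 iPS clones in 6 groups of 5, 1 for each source and factor set and written 4F-PαS-iPS, 3F-PαS-iPS and so on, of ES cells of the lines EB-3 and RF8, with 1 array each, and of primary PαS cells, OP cells and TTF, with 1 array each. A replicate within a clone group was another clone, every iPS clone carried integrated viruses, and the clones had been chosen for silent DsRed and active Nanog-GFP. The iPS cells were grown on mitomycin-C-treated SNL feeder cells, whose mouse RNA the arrays would read too. The labels did not say whether the clones of a group came from 1 animal or several.

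Levels were log2 of the processed intensity relative to the 75th percentile of the same array, so a level of 0 equalled that percentile and a difference of 1 was 2-fold. Between 56.6% and 71.1% of the gene probes were well above background on an array. All 30 clones were scanned in 1 session on 8 slides, the EB-3 array was scanned with the primary cells in another session and the RF8 array in yet another, so clone and ES cell differences cannot be told apart from session. Of 7 ES and iPS cell markers, 5 (Pou5f1, Sox2, Nanog, Zfp42 and Esrrb) were not well above background on any primary cell array. The primary arrays did carry the mesenchymal markers, all 18 of which were well above background in each source. In 4F-TTF-iPS #1, 4F-OP-iPS #1 and 4F-OP-iPS #3, Sox2 was not well above background (-5.27, -8.09 and -8.21) and neither was Nanog, and the calls and Igf2bp3 values between clone groups are also given without these clones. 4F-OP-iPS #2 stood apart as well, with Pou5f1 at -1.96, the lowest of all clones, Nanog at -3.30, Sox2 at -2.04 and the highest sum of endoderm markers of all clones. Factor set went closely with slide, since of the 8 slides with clones 1 held both 3F and 4F clones, and those were of different sources.

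Lin28 is an RNA-binding protein of ES cells and early embryos. It binds the precursors of the let-7 microRNAs and keeps them from being processed, and Dicer1 is the enzyme that cuts microRNA precursors to their mature form. Hmga2, the Igf2bp genes, Myc and Lin28 itself are known let-7 targets, and Lin28 has been used as a reprogramming factor. Hmga1 and Hmga2 are AT-hook chromatin proteins of embryonic and dividing cells, and Igf2bp1, Igf2bp2 and Igf2bp3 are oncofetal proteins that bind and stabilise messenger RNAs such as Igf2.

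Mature let-7 microRNAs were not measured here, and their shared seed is given as background. In RefSeq (GRCm38.p6), 9 names of the family had the seed GAGGUAG at bases 2 to 8, and miR-202-3p differed from them in its last seed base. Examples are printed 5′ to 3′ with the seed in capitals.
mmu-let-7a-5p: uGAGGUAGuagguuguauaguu
mmu-let-7d-5p: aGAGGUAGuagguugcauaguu
mmu-let-7i-5p: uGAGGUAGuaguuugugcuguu
mmu-miR-98-5p: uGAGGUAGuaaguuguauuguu
mmu-miR-202-3p: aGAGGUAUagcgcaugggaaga

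The complement of the shared seed, CTACCTC, lay within 2 of the 14 probe sequences when all were searched on the strand of the transcript. It lay in 0.306% of all 41174 gene probes on that strand and in 0.274% on the other strand, and in 0 of 23 probes of other known let-7 targets, the brightest of each gene. These are letters in a probe, and binding was not measured. Both windows are shown because the probes themselves read transcript stretches that hold the seed match, printed in capitals. The first is from the main Hmga2 probe, A_52_P300730, at chr10:119755899-119755925 on the minus strand, and the second from the Igf2bp1 probe A_52_P295950 at chr11:96067168-96067196 on the minus strand, in mm7 as the scanner files give it.
Hmga2: aaaacacactaCTACCTCttaagtccc
Igf2bp1: tggttttaatCTACCTCttagcaaaacaa
The other 12 probes did not contain these letters, which says nothing of sites elsewhere in the same transcripts. Exon and intron positions in mm7 were not analysed here. The Lin28 probe lay at chr4:133382045-133382104 on the minus strand and the Hmga1 probe at chr17:25749229-25749288 on the plus strand.

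Lin28 was measured in every clone and in both ES arrays, and it was not well above background in any of the 3 primary cell types. Its log2 level was 1.25, 1.04, 0.41, 1.56 and 0.33 in 4F-PαS-iPS #1 to #5 and 0.69, 0.73, 0.84, 1.57 and 1.07 in 3F-PαS-iPS. It was -0.89, 1.28, -0.52, 1.02 and 0.05 in 4F-OP-iPS and -1.14, 0.69, -0.26, -0.75 and 0.44 in 3F-OP-iPS. It was 1.23, 1.56, 1.22, 1.19 and 0.65 in 4F-TTF-iPS and 1.33, 0.38, 0.05, 0.37 and -0.03 in 3F-TTF-iPS. All 10 PαS-iPS clones were above 0, whereas 5 OP-iPS clones and 1 TTF-iPS clone were below it, and the 3 sources overlapped. EB-3 was at 2.79, above every clone, and RF8 was at 1.44, which 3 clones exceeded.

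The primary cells gave Lin28 values of -9.45 in PαS cells, -8.80 in OP cells and -8.91 in TTF, all below the lowest level that counted as well above background on their arrays. Set against that lowest level, Lin28 was at least 277-fold higher in the mean of the 10 PαS-iPS clones than in PαS cells. The same bound was at least 88.8-fold for OP-iPS clones over OP cells and at least 171-fold for TTF-iPS clones over TTF. With 1 array per cell type these differences have no test, and fewer cells with a transcript and less transcript per cell cannot be told apart in bulk RNA.

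Ordered by mean, Lin28 stood at 1.17 ± 0.33 (SD, n = 5) in 4F-TTF-iPS, 0.98 ± 0.36 in 3F-PαS-iPS, 0.92 ± 0.53 in 4F-PαS-iPS, 0.42 ± 0.54 in 3F-TTF-iPS, 0.19 ± 0.94 in 4F-OP-iPS and -0.21 ± 0.77 in 3F-OP-iPS. No neighbouring clone groups in this order differed by more than the larger of their SDs. Both OP-iPS groups came last and had the widest spread.

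**Figure D1:**
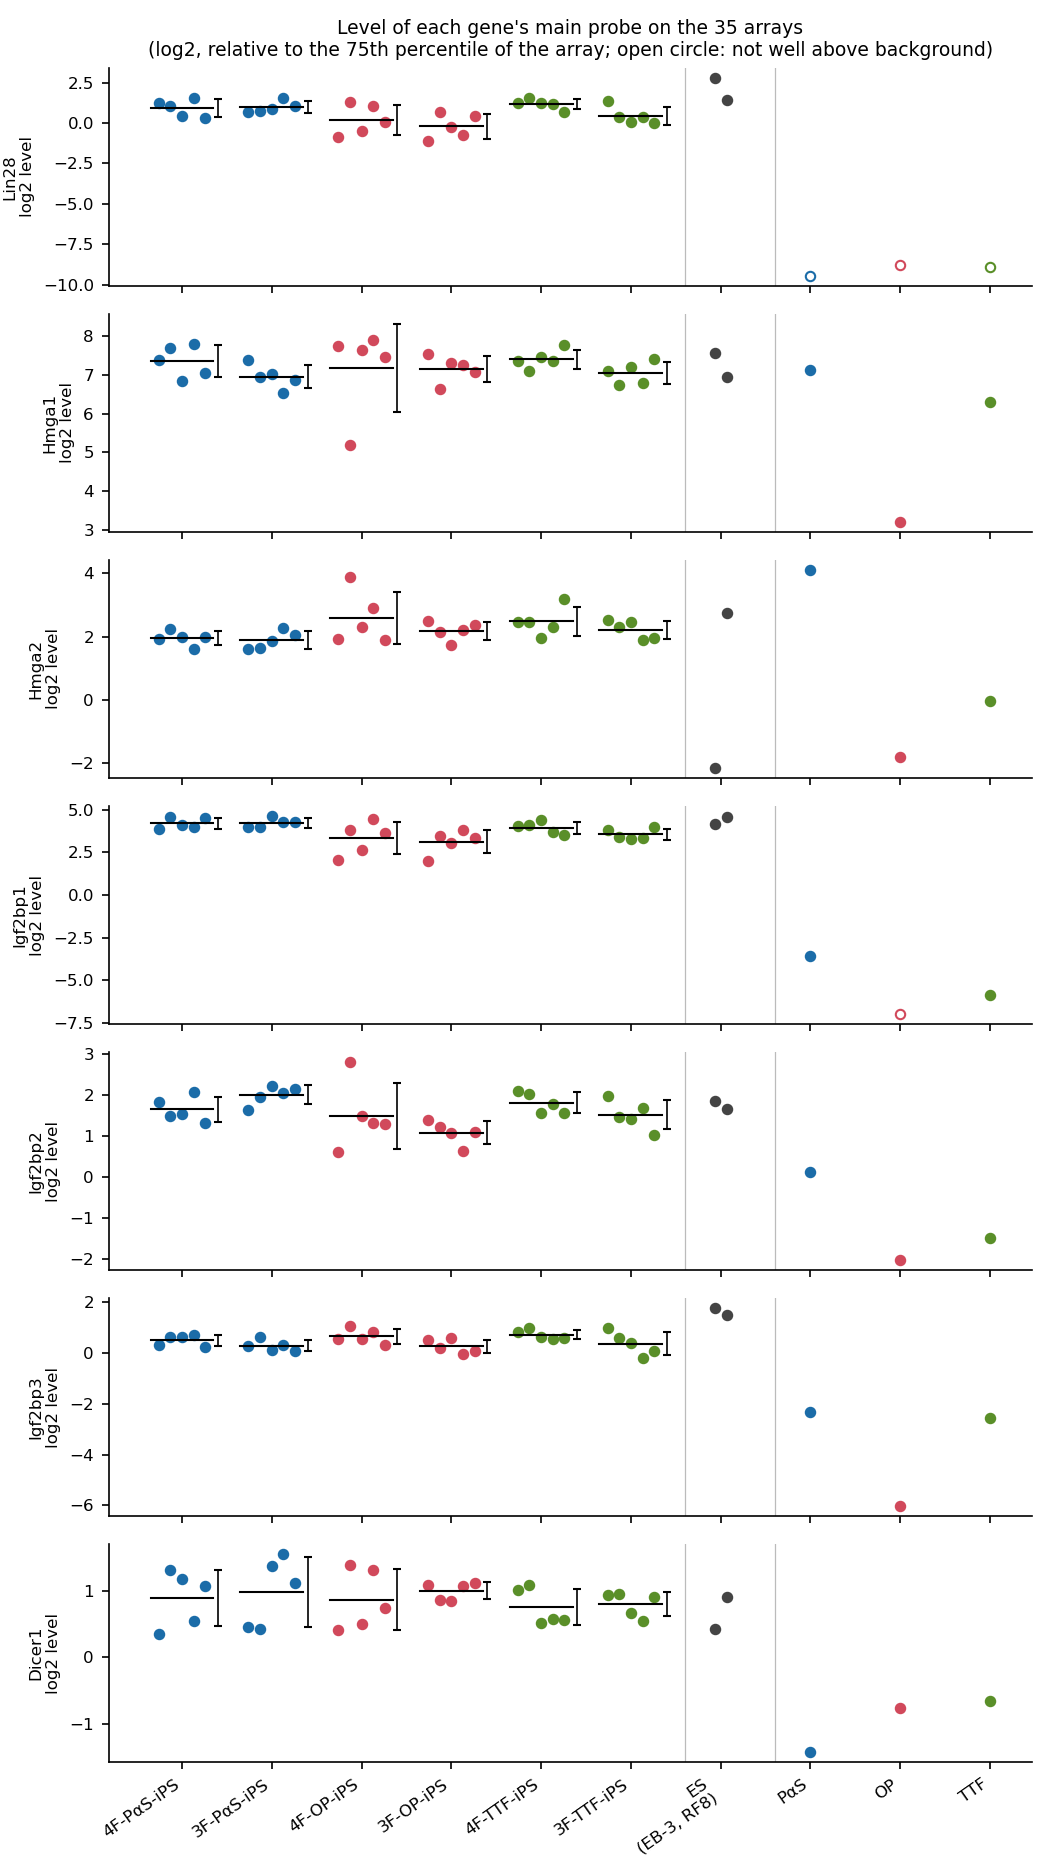
Log2 level, relative to the 75th percentile of the array, of the main probe of each of the 7 genes on all 35 arrays (each panel with its own axis). Points are arrays, horizontal lines are means of 5 clones with the SD beside them, and open circles were not well above background. For Lin28, Igf2bp1, Igf2bp2, Igf2bp3 and Dicer1, all clones and both ES arrays lie above the 3 primary cell types. PαS cells lie within the clones for Hmga1 and above them for Hmga2.

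Igf2bp1, also called IMP1 and known for binding Igf2, Myc and Actb messages in the fetus, had a range over clones that was widest in OP-iPS. On its brightest probe, A_51_P497113, the 10 PαS-iPS clones lay between 3.87 and 4.62 with a median of 4.17. The 4F-OP-iPS clones were at 2.08, 3.83, 2.66, 4.43 and 3.61, and the 3F-OP-iPS clones at 2.00, 3.44, 3.07, 3.78 and 3.35. The 10 TTF-iPS clones lay between 3.26 and 4.38 with a median of 3.74. Clone #1 of 3F-OP-iPS and clones #1 and #3 of 4F-OP-iPS had the lowest values, and only 1 OP-iPS clone, 4F-OP-iPS #4, was above the PαS-iPS median.

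A second Igf2bp1 probe, A_52_P620742, gave 0.40, 0.46, 0.14, 0.66 and 0.33 in 4F-PαS-iPS and 0.07, -0.04, 0.47, 0.15 and 0.08 in 3F-PαS-iPS. It gave -1.72, -0.11, -1.73, 0.35 and -1.01 in 4F-OP-iPS and -2.19, -0.76, -0.84, -0.25 and -0.72 in 3F-OP-iPS. Of the 10 OP-iPS clones, 9 were below every PαS-iPS clone on this probe, and 4F-OP-iPS #4 lay among them. Over the 30 clones the 3 Igf2bp1 probes had Pearson correlations of 0.86 to 0.92 with one another.

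In the primary cells Igf2bp1 was low on all 3 probes. PαS cells gave -3.60 on A_51_P497113, 224-fold below the mean of their clones, and TTF gave -5.83, 764-fold below theirs. OP cells gave -6.95, not well above background, and their clones were at least 835-fold higher. PαS cells were the 1 source in which all 3 Igf2bp1 probes were well above background, the others being at -5.16 and -6.67.

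Igf2bp2, the family member that many adult tissues keep, lay between 0.59 and 2.79 in the clones with a median of 1.53. ES cells were at 1.85 (EB-3) and 1.64 (RF8), inside that range. The primary cells were at 0.10, -2.03 and -1.50 in PαS cells, OP cells and TTF, all measured and all below the lowest clone. The clones of each source were 3.27-fold, 9.92-fold and 8.90-fold above their own source.

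Igf2bp3, which is mostly silent after birth, lay between -0.19 and 1.07 in the clones on its brightest probe, A_51_P302336, with a median of 0.55. EB-3 at 1.77 and RF8 at 1.50 were above all 30 clones. PαS cells were at -2.33 and TTF at -2.57, which was 6.59-fold and 8.64-fold below their clones. OP cells were at -6.03, 90.0-fold below theirs. The 3 Igf2bp3 probes had correlations of 0.85 to 0.88 with one another over the clones. The scanner files give A_51_P302336 a span of 608 bases on the genome, so its probe is not 1 unbroken stretch there.

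Hmga2 was the gene of the 7 in which the ES lines disagreed most. On its main probe, A_52_P300730, the clones lay between 1.60 and 3.88 with a median of 2.17, and RF8 was at 2.75 within that range. EB-3 was at -2.14, below every clone and 29.7-fold below RF8. Among the 25701 probes above background on both ES arrays, 0.350% differed by as much. The other Hmga2 probes differed between the ES lines by 34.9-fold and 34.2-fold in the same direction.

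The sources also spread widely in Hmga2. PαS cells were at 4.10, above every clone and 4.54-fold above the mean of their own clones. On A_51_P288315 they were 4.13-fold above that mean at 0.58, just below 4F-OP-iPS #2 at 0.63, and on A_52_P373357 they were within the range of the clones. OP cells were at -1.80 and TTF at -0.03, 18.1-fold and 5.18-fold below theirs. The PαS-iPS clones, from the source with the highest level, were between 1.60 and 2.28, and the OP-iPS clones, from the source with the lowest, were between 1.74 and 3.88. No Hmga2 probe was called between clones of different sources, so no order of the clones was shown.

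Within the clones, Hmga2 was highest in 4F-OP-iPS #2 at 3.88, followed by 4F-TTF-iPS #5 at 3.18 and 4F-OP-iPS #4 at 2.90. The group means went from 2.58 ± 0.83 (SD, n = 5) in 4F-OP-iPS to 1.88 ± 0.28 in 3F-PαS-iPS, and no neighbouring clone groups in that order differed by more than their larger SD. The probe A_51_P288315 had a correlation of 0.98 with the main probe. The third probe, A_52_P373357, lay upstream on the transcript strand, was not well above background in 13 of 30 clones and had correlations of only 0.55 and 0.49 with the others and it was not averaged with them.

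Hmga1, the chromatin protein that stays on in many dividing cells, lay between 5.18 and 7.90 in the clones with a median of 7.29. The lowest clone was 4F-OP-iPS #2, which was also highest for Hmga2 and Igf2bp2 and low in ES cell markers, and the other 29 were between 6.55 and 7.90. ES cells were at 7.57 (EB-3) and 6.96 (RF8). PαS cells at 7.13 and TTF at 6.31 were within the range of the clones, TTF only because of 4F-OP-iPS #2, and OP cells at 3.21 were 15.7-fold below the mean of their clones. OP cells were therefore the lowest source for both Hmga genes, for Igf2bp2 and for Igf2bp3.

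Dicer1 was well above background on all arrays on its main probe. On A_51_P483059 the clones lay between 0.34 and 1.55 with a median of 0.92, and the ES arrays were at 0.43 (EB-3) and 0.91 (RF8). PαS cells were at -1.43, OP cells at -0.77 and TTF at -0.66, which was 5.15-fold, 3.25-fold and 2.71-fold below their clones. On the other probe, A_51_P333060, PαS cells at -0.34 were within the clone range, and OP cells and TTF were below it. The 2 Dicer1 probes had a correlation of 0.63 over the clones, and the second has a span of 2072 bases on the genome in the scanner files.

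Across the 14 probes, the 3 primary cell types were together below all 30 clones for 9. The share over all 27623 probes was 14.1%. Taken singly, PαS cells were below all clones for 9 probes and above for 1, beside 28.9% and 16.7% of all probes. OP cells were below for 13, beside 27.6%. These 14 probes read 7 genes and are not independent, and the primary arrays were scanned in a different session from the clones.

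**Figure D2:**
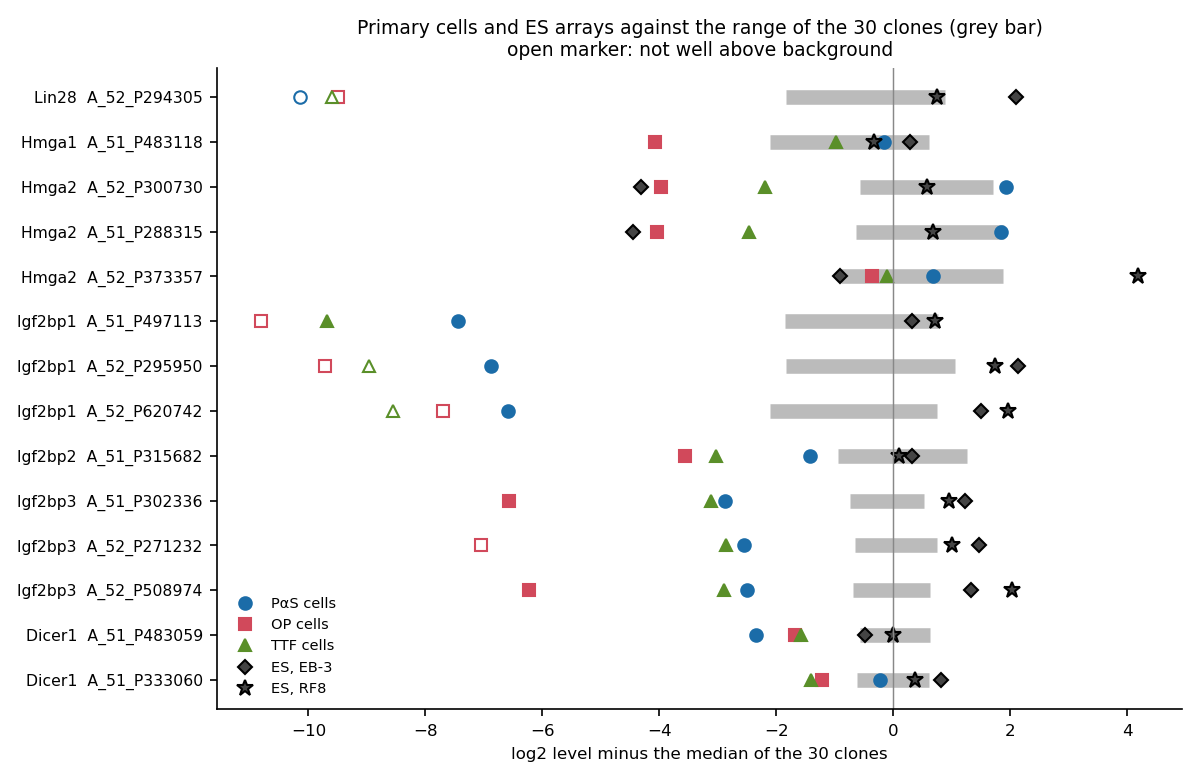
Log2 level of the 14 probes in primary PαS cells, OP cells and TTF and in the ES arrays, after subtracting the median of the 30 clones (grey bar: range of the clones; open marker: not well above background). The primary cells lie to the left of the grey bars for 9 probes, and EB-3 and RF8 lie on opposite sides of the median for the Hmga2 probes.

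The first comparison asked how near the clones came to ES cells. Lin28 was 2.89-fold lower in the clones (log2 difference -1.53, SE 0.45, limma adjusted p = 0.0059). The 3 Igf2bp3 probes were lower by 1.17, 1.21 and 1.76 on the log2 scale (fold 2.25, 2.31 and 3.38; limma adjusted p = 5.3e-05, 3.6e-05 and 4.8e-08). Igf2bp1 was lower by 2.08 on A_52_P295950 and by 1.95 on A_52_P620742 (limma adjusted p = 0.00019 and 7.5e-05), but on the brightest probe the difference was -0.64 with an adjusted p of 0.16. Hmga2 was called higher in the clones on 2 probes, by 1.92 and 1.95. The other probe, A_52_P373357, gave -1.46 (limma adjusted p = 0.064). That value has no exact size, since 13 of 30 clones were not well above background on this probe. Hmga1, Igf2bp2 and the main Dicer1 probe differed by -0.07, -0.16 and 0.21 and were not called.

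In all, 8 of the 14 probes were called at an adjusted p under 0.05 and at least 2-fold, 2 higher and 6 lower, beside 36.2% of all tested probes, 17.2% higher and the rest lower. Without the fold minimum 9 passed, the added one being Dicer1 A_51_P333060 at -0.63 (adjusted p = 0.030), beside 52.4% of all probes. The median difference over the 14 probes was -0.90 and that over all tested probes -0.11. All 30 clones were below both ES arrays for 5 probes, the 3 of Igf2bp3 and those 2 of Igf2bp1, beside 14.4% of all probes.

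The calls of Lin28 and of both higher Hmga2 probes rested on EB-3. Against RF8 alone, Hmga2 differed by -0.53 (limma adjusted p = 0.37) on the main probe and Lin28 by -0.86 (adjusted p = 0.28). The Hmga2 probe A_52_P373357 was at -1.27 in RF8, above all clones, whose highest value was -3.58, and it was among the RF8 calls, but 13 of 30 clones were not well above background on it, so that its difference has no exact size. With 1 ES array the spread in these tests came from the clone groups. Against EB-3 alone, the differences were 4.36 and -2.21. RF8 alone gave 5 calls among the 14 probes, beside 29.1% of all probes, and EB-3 alone gave 8, beside 36.1%. The 3 Igf2bp3 probes were lower against either line by 0.97 to 2.10, though 1 of them, A_52_P271232, missed the 2-fold minimum against RF8 at -0.97.

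The ES lines differed in other markers too. The summed linear level of the 18 mesenchymal markers was 38.2 in EB-3 and 210 in RF8, between 145 and 633 in the clones, and 1377, 1838 and 901 in PαS cells, OP cells and TTF. Only 10 of the 18 were well above background in EB-3, and all 18 in RF8. The summed level of 5 endoderm markers was 0.342 in EB-3, 0.525 in RF8 and between 4.83 and 68.8 in the clones. The part of these cells in the Hmga2 and Lin28 differences was not tested.

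The second comparison asked whether clones differed by the source they came from. Igf2bp1 was higher in PαS-iPS than in OP-iPS clones on A_52_P620742, by 1.17 on the log2 scale (SE 0.22, 2.25-fold, limma adjusted p = 0.0067). This was the 1 call among the 14 probes, beside 1.60% of all tested probes. With normexp background the difference was 0.96 (adjusted p = 0.0087), short of 2-fold, and no probe was called. With no fold minimum 3 passed, beside 3.69%: the others were Igf2bp1 A_51_P497113, at 0.99 (SE 0.23, adjusted p = 0.021), and Lin28, at 0.96 (SE 0.28, adjusted p = 0.048). The summed level of the sorting markers Pdgfra and Ly6a, between 2.38 and 6.85 in the PαS-iPS clones and between 1.16 and 27.6 in the OP-iPS clones, moved against Igf2bp1 over the 30 clones (r = -0.46, on the log2 scale), and its part in the difference was not tested. The third Igf2bp1 probe was at 0.81 (adjusted p = 0.071) and Igf2bp2 at 0.53 (adjusted p = 0.089). No probe separated the groups without overlap, and the Hmga, Igf2bp3 and Dicer1 probes differed by -0.79 to 0.13 with no call. The -0.79, of Hmga2 A_52_P373357, has no exact size, since 7 of 10 PαS-iPS clones were not well above background on it.

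Slides held clones of both sources in 3 cases, and within these slides A_52_P620742 was higher in PαS-iPS by 1.15, 1.25 and 1.59. The main Igf2bp1 probe was higher by 1.33, 1.01 and 1.56, and Lin28 by 0.17, 0.86 and 1.55. With slide as a fixed block both of these Igf2bp1 probes were called, at 1.39 and 1.38 (limma adjusted p = 0.037 and 0.040). Over all tested probes 275 were called under that setting, and Lin28 was not, at 1.01 (adjusted p = 0.13). With slide as a random block Lin28 was called at 1.04 (limma adjusted p = 0.046), as were these Igf2bp1 probes, beside 419 of all tested probes. Without the 3 clones that lacked Sox2, A_52_P620742 stood at 0.87 (adjusted p = 0.069) and no probe was called, and under that setting 15 of all tested probes were called in place of 443. Without 4F-OP-iPS #2 as well, 345 of all tested probes were called and 0 of the 14, with A_52_P620742 at 0.91 (adjusted p = 0.031), short of 2-fold. 3F-OP-iPS #1, which was lowest of all clones for Lin28 and for 2 of the 3 Igf2bp1 probes, had Sox2 at 0.47, well above background.

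The other source comparisons gave no call among the 14 probes. PαS-iPS against TTF-iPS had 0 calls, beside 0.500% of all probes called. At an unadjusted p under 0.05 there was 1 of the 14, beside 16.6% of all probes. OP-iPS against TTF-iPS had 0 calls, beside 0.0217% of all probes called. There 3 of the 14 had an unadjusted p under 0.05, beside 10.2% of all probes, namely Lin28 at -0.80, Igf2bp1 A_52_P620742 at -0.61 and Igf2bp1 A_51_P497113 at -0.52 (limma adjusted p = 0.31, 0.34 and 0.45). The OP-iPS clones shared in both contrasts make these values not independent of those against PαS-iPS.

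**Figure D3:**
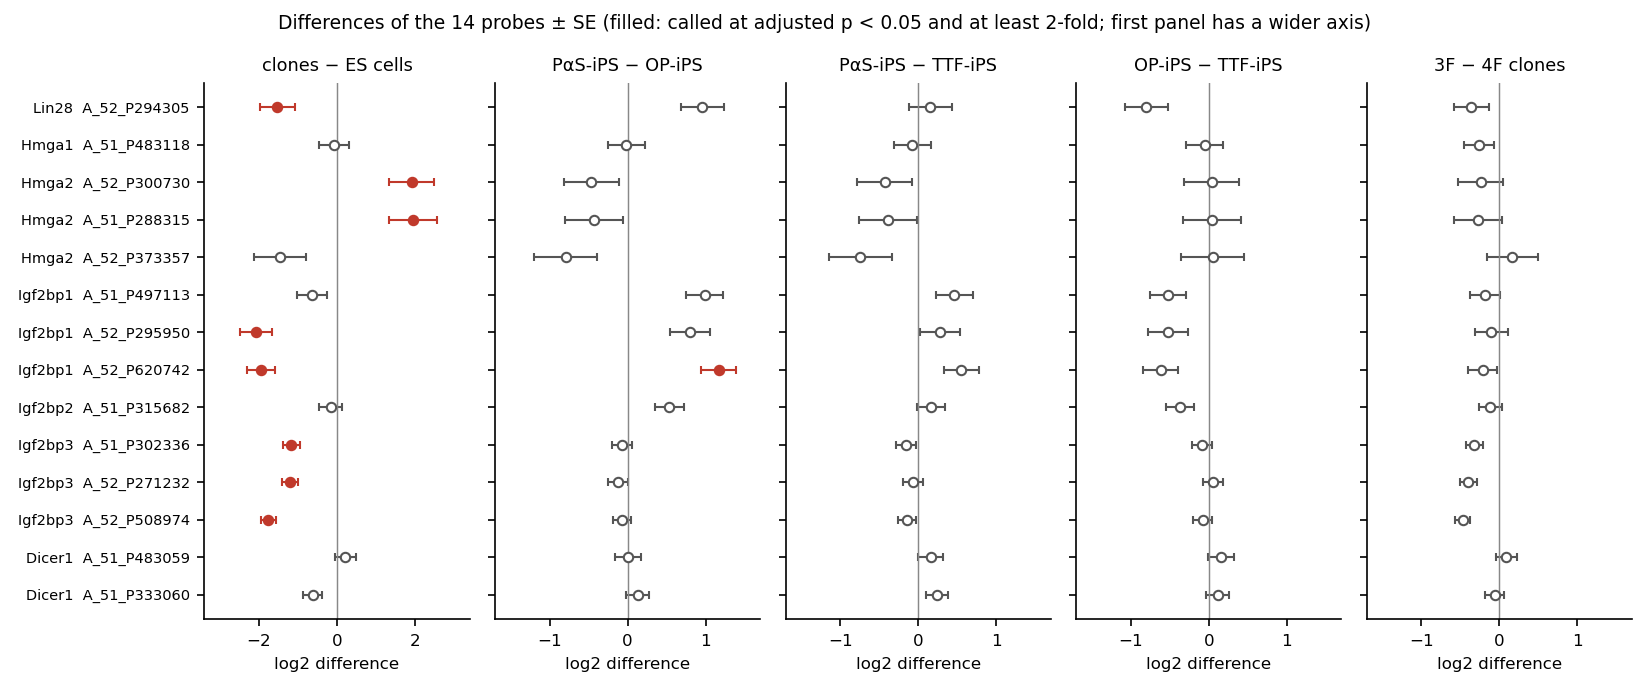
Log2 difference with its SE for each of the 14 probes in 5 comparisons (filled red: called at an adjusted p under 0.05 and at least 2-fold; the first panel has a wider axis). Calls stand in the clones against ES cells panel, 8 of them, and in the PαS-iPS against OP-iPS panel, 1 of them.

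The third comparison asked what leaving out c-Myc changed. Igf2bp3 was lower in the 15 3F than in the 15 4F clones on all 3 probes, by 0.32, 0.40 and 0.47 on the log2 scale (limma adjusted p = 0.031, 0.0089 and 0.0013). With slide as a random block the differences were -0.29, -0.38 and -0.46 and none passed (adjusted p = 0.30, 0.16 and 0.061), and over all tested probes the calls fell from 1475 to 395. Because most slides held 1 factor set, slide and factor set are hard to tell apart here. The summed level of the sorting markers had r = 0.48 with Igf2bp3 over the 30 clones, with a median of 11.5 in 4F and 4.34 in 3F clones, and its part in the difference was not tested. The largest was 1.38-fold, so that 0 of the 14 probes were called, beside 5.34% of all tested probes, and the 3 that passed on the adjusted p alone stood beside 21.2%. On A_52_P508974 the 4F clones had a median of 0.44 and a range of 0.04 to 0.91, and the 3F clones a median of -0.01 and a range of -0.41 to 0.49. Lin28 differed by -0.36 (adjusted p = 0.26).

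By source, 2 of the 3 Igf2bp3 probes passed on the adjusted p in OP-iPS clones. On A_52_P508974 the 4F-OP-iPS clones were at 0.69, 0.91, 0.44, 0.55 and 0.21 and the 3F-OP-iPS clones at -0.01, -0.10, -0.01, -0.41 and -0.18. These groups did not overlap, as was so in this direction for 2.70% of all tested probes, and differed by -0.70 (limma adjusted p = 0.012). A_52_P271232 differed by -0.60 there (adjusted p = 0.042). Without the 2 of these clones that lacked Sox2 the differences were -0.70 and -0.68 (adjusted p = 0.092 and 0.12), and over all sources without the 3 such clones the 3 probes differed by -0.34, -0.40 and -0.47 (limma adjusted p = 0.061, 0.025 and 0.0069). With slide as a random block the OP-iPS differences were -0.77 and -0.64 (adjusted p = 0.077 and 0.16). Without 4F-OP-iPS #2 as well as the clones lacking Sox2 they were -0.52 and -0.55 (adjusted p = 0.38 and 0.42). Neither OP-iPS difference reached 2-fold, so that 3F-OP-iPS against 4F-OP-iPS had 0 calls among the 14, beside 4.51% of all probes called and 8.10% past the adjusted p alone.

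In PαS-iPS the same probes differed by -0.35 and -0.15 (limma adjusted p = 0.27 and 0.71) and in TTF-iPS by -0.35 and -0.44 (adjusted p = 0.18 and 0.13). The brightest probe, A_51_P302336, differed by -0.39 in OP-iPS, -0.21 in PαS-iPS and -0.36 in TTF-iPS (limma adjusted p = 0.19, 0.57 and 0.21). With slide as a fixed block, possible here only in TTF-iPS, the differences turned sign, to 0.25, 0.17 and 0.64 on A_52_P508974, A_52_P271232 and A_51_P302336 (SE 0.47, 0.54 and 0.54), with no call. 3F against 4F gave 0 calls in PαS-iPS and in TTF-iPS, beside 0.0181% and 5.77% of all probes called. At an unadjusted p under 0.05 there were 1 and 2 of the 14, beside 17.3% and 26.1% of all probes. A test of whether the factor effect differed between sources passed for 0 of the 14 probes, beside 0.532% of all probes. An unadjusted p under 0.05 was found for 0 of the 14 and for 17.6% of all probes. A difference of Igf2bp3 between sources was therefore not shown.

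Over the 30 clones, Lin28 went with Igf2bp1 (Pearson r = 0.73) and with Igf2bp2 (r = 0.74), and less with Igf2bp3 (0.37), Dicer1 (0.18), Hmga2 (0.16) and Hmga1 (-0.26). The points share 1 scan session, 8 slides and a scaling per array, and the values are a description. Within sources, Lin28 and Igf2bp1 had r = 0.77 in the 10 OP-iPS and 0.60 in the 10 TTF-iPS clones. In the 10 PαS-iPS clones r was -0.16. The part of their narrower spread (SD 0.43 for Lin28 and 0.28 for Igf2bp1) was not tested. Lin28 and Igf2bp2 had r = 0.62, 0.60 and 0.84 in PαS-iPS, OP-iPS and TTF-iPS clones. Lin28 had r = 0.25 with Sox2 and 0.13 with Nanog, and Igf2bp1 had r = 0.47 with Sox2, where 3 clones were not well above background for Sox2 and Nanog.

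**Figure D4:**
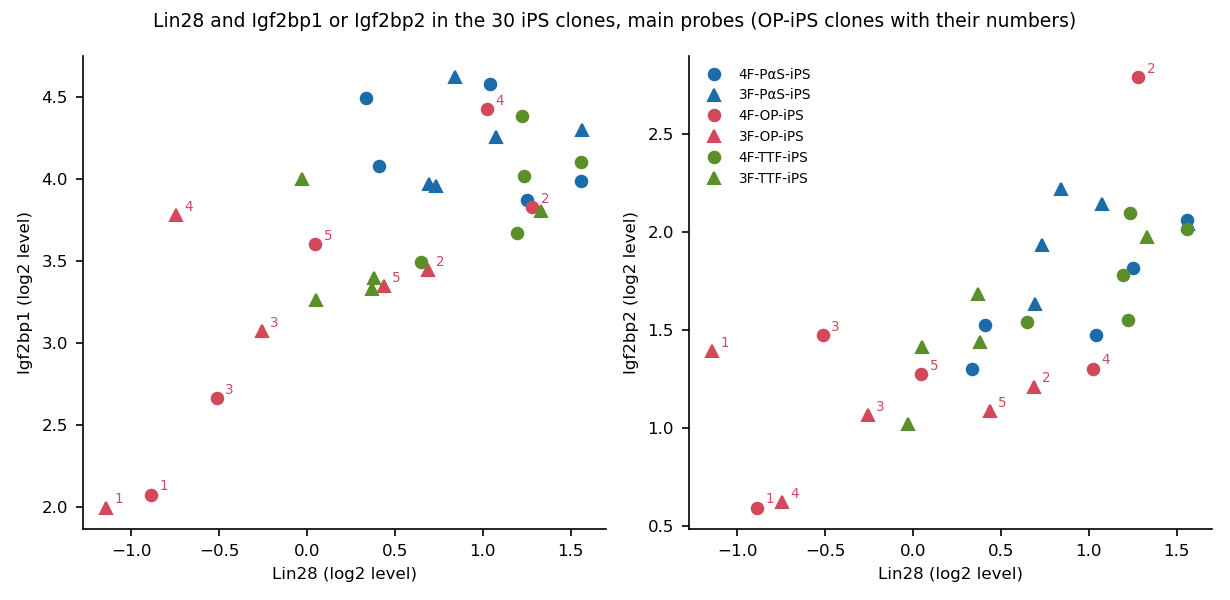
Log2 level of Igf2bp1 (left) and Igf2bp2 (right) against Lin28 in the 30 iPS clones, main probes, coloured by source, with circles for 4F and triangles for 3F clones and numbers on the OP-iPS clones. The Pearson correlations are 0.73 and 0.74, and OP-iPS clones 4F #1, 4F #3 and 3F #1 lie lowest for Igf2bp1.

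The clones without Sox2 still carried Lin28. It was 1.23 in 4F-TTF-iPS #1, among the higher clones, and -0.89 and -0.52 in 4F-OP-iPS #1 and #3. The log2 summed level of the endoderm markers had r = 0.68 with Lin28 and 0.74 with Igf2bp2, and that of the mesenchymal markers had r = -0.08 and -0.36. All 5 endoderm markers were well above background in all 30 clones. The part of such cells in the Lin28 values was not tested.

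The genes whose levels were most like each member's were sought among 23857 other named and tested probes. For Lin28 they were Sall4, a zinc-finger factor of ES cells (r = 0.86), Arid3b, itself a known let-7 target (0.86), and Tmem39a (0.85). For Igf2bp1 they were Aunip, named 2610002D18Rik in the files (0.93), Usp49 (0.87) and Ncoa3, a coactivator (0.85), and for Igf2bp2 they were Btg1 (0.90), Fndc3a (0.88) and Plekhf1 (0.87). For Igf2bp3 they were Rdx (0.80), Pds5b, a cohesin partner named Aprin in the files (0.77), and Mcmbp, named 1110007A13Rik there (0.76), the lowest of the sets. For Dicer1 they were Mphosph10 (0.89), Taf2 (0.87) and Zc3h13 (0.87).

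For Hmga1 the nearest were Gdf3, a ligand of ES cells, Nipsnap1 and Prodh (0.92, 0.91 and 0.91). Without 4F-OP-iPS #2, which had the lowest Hmga1, these were 0.82, 0.81 and 0.83. For Hmga2 they were Cbfb (0.86), Hmga2-ps1 (0.84) and Sh2b3 (0.81). Hmga2-ps1 is a pseudogene copy, and its probe and those of Hmga2 may read the same transcript. Without 4F-OP-iPS #2, Cbfb and Sh2b3 were at 0.77 and 0.65.

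Other genes of the pathway were taken from lists drawn up from textbook knowledge, each gene by its brightest probe. Of 15 genes of microRNA processing, 1 was called higher and 3 lower in the clones than in ES cells, with a median of -0.47 beside -0.11 over all tested probes. Over all tested probes 36.2% were called in this comparison, a larger share than these 4 of 15. Lower were Tnrc6c, a partner of Argonaute (-1.53), Dgcr8, which holds the primary transcript for Drosha (-1.45), and the Argonaute gene Eif2c3 (-1.15), and higher was its relative Eif2c4, by at least 1.89, since EB-3 was not well above background. Neither the source comparisons nor any 3F against 4F comparison called a gene of this list. Drosha, under its older name Rnasen, and Eif2c2 were lower in all 3 primary cell types than in every clone, and Eif2c3 and Eif2c4 were higher, 2 of 15 each way beside 14.1% and 6.69% of all probes.

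Of 9 Lin28 partners and relatives 6 were tested, with 2 called higher and 2 lower in the clones than in ES cells, beside 36.2% of all tested probes called either way, and a median of -0.45. Lin28b, the paralog of Lin28, was 4.26 lower on the log2 scale (limma adjusted p = 1.6e-05), with ES cells at 1.16 (EB-3) and 1.92 (RF8) and clones between -4.72 and -0.84. All 30 clones were below both lines. Syncrip was 1.61 lower, the uridylyltransferase gene Zcchc6 1.29 higher and Khsrp, which binds let-7 precursors, 3.02 higher. Lin28b was also lower in 3F than in 4F clones by 1.29 (limma adjusted p = 0.010), and it was the 1 called gene of the 6 in that comparison, beside 5.34% of all tested probes. With slide as a random block that difference was -1.45 (adjusted p = 0.067), and with normexp background it was -0.88, short of 2-fold, so neither gave a call. Lin28b was not well above background in any primary cell type.

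Of 25 let-7 targets 22 were tested, with 3 called higher and 5 lower in the clones than in ES cells and a median of -0.31. These 8 of 22 are a share close to the 36.2% of all tested probes called. The lowest were Dna2l (-2.36) and Mycn (-2.13), and the highest Fas (3.18) and Insr, which was well above background in 22 of 30 clones and on neither ES array, so that its difference has no exact size. Fas differed between the ES lines, at -5.37 in EB-3 and -1.0 in RF8. All 3 primary cell types were below every clone for 5 of the 22 and above for 2, beside 14.1% and 6.69% of all probes. Mycn was one of those below, at -5.89 in PαS cells and not well above background in OP cells and TTF.

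Myc was the 1 let-7 target of 22 called between PαS-iPS and OP-iPS clones, beside 1.60% of all tested probes. It was 2.34 lower in PαS-iPS than in OP-iPS clones (limma adjusted p = 0.028) and 1.93 lower in 3F than in 4F clones (adjusted p = 0.0057). E2f2 was also lower, by 1.12, and Fas higher, by 1.03, in 3F than in 4F clones, which made 3 of 22, beside 5.34% of all tested probes. With normexp background Fas was at 0.91, short of 2-fold. The Myc probe may also read the c-Myc virus given to the 4F clones, and the virus and the gene cannot be told apart in those clones. The 3F clones received no c-Myc virus. Their Myc means were -1.25 in 3F-PαS-iPS and 0.56 in 3F-OP-iPS, a difference that was not tested on its own. In TTF-iPS Myc was 2.85 lower in 3F than in 4F clones (adjusted p = 0.030), a call lost with normexp background at -2.58 (adjusted p = 0.059) and with slide as a random or fixed block at -2.77 and -2.14 (adjusted p = 0.42 and 1.0). Without the clones that lacked Sox2, Myc differed between PαS-iPS and OP-iPS by -1.66 (limma adjusted p = 0.21) and was no longer called, as with slide as a fixed block (-2.57, adjusted p = 0.12), while between 3F and 4F it was at -1.42 (adjusted p = 0.039). E2f2 then lost its call, at -0.74 (adjusted p = 0.18), and regained it without 4F-OP-iPS #2 as well, at -1.17 (adjusted p = 0.0070). With slide as a random block, Myc, E2f2 and Fas were not called between 3F and 4F clones (adjusted p = 0.12, 0.27 and 0.12).

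Of 7 genes of the Igf2bp cargo and the Igf axis, 5 were called higher in the clones than in ES cells and none lower, beside 17.2% of all tested probes called higher, with a median of 3.39. H19, the noncoding RNA beside Igf2, was 7.75 higher, Igf2 3.61, Igf1 3.39 and Actb 1.28. Cd44 was at least 5.67 higher, a bound because EB-3 was not well above background for it. The summed endoderm markers were likewise higher in every clone than in both ES lines, and the mesenchymal sum in every clone than in EB-3, and their part was not tested. The clones spread widely, with H19 between -0.77 and 6.68 and Igf2 between -2.69 and 6.31. Cd44 was at -7.31 in EB-3 and 2.01 in RF8, H19 at -5.53 and -0.53, and Igf2 at -2.35 and 2.61. Igf2, H19 and Igf1 were called higher in 3F than in 4F clones, by 2.20, 1.62 and 1.57 (limma adjusted p = 0.028, 0.041 and 0.017), 3 of 7 beside 5.34% of all tested probes. None of these 3 was called without the clones that lacked Sox2, at 1.19, 0.85 and 1.33 (adjusted p = 0.17, 0.24 and 0.084), or with slide as a random block (adjusted p = 0.24, 0.25 and 0.30).

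Of 6 genes listed around the Hmga genes, Hmgb2 was called lower in the clones than in ES cells (-1.73). Cdkn2a, no relative but a gene that Hmga2 is known to repress, was called higher (2.80). Over all tested probes 36.2% were called, and the median of the 6 was -0.72. Cdkn2a was also 2.10 lower in PαS-iPS than in OP-iPS clones (limma adjusted p = 0.0064), the 1 call of the 6, beside 1.60% of all tested probes. Hmga2 had no call in that comparison. The group means of Cdkn2a were -2.07 and 0.03, and without the clones that lacked Sox2 the difference was -1.60 (limma adjusted p = 0.066). It was called again without 4F-OP-iPS #2 as well, at -1.91 (adjusted p = 0.012), and was not called with slide as a fixed block, at -1.94 (adjusted p = 0.082). In the primary cells Hmgb2 and Hmgb3, 2 of the 6, were below every clone, beside 14.1% of all probes.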

How the data were processed

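Total RNA was labelled with Cy3 and hybridised to 1-colour Agilent mouse arrays, 1 per sample. The deposited scanner files hold, per the file headers, processed intensity from Feature Extraction in the build mm7. The authors' deposited value table holds log2 values, which followed the scanner values with slopes of 1.00 and r of at least 0.999, and was used as an alternative. Columns of no known sample numbered 0. The authors used GeneSpring and stated no test.

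Intensities were averaged over the spots of a probe, taken to log2 and set relative to the 75th percentile of the array. Control spots and outliers were left out. A probe was tested if all arrays in any 1 of 7 groups (6 clone groups and ES cells) rated it well above background. limma 3.58.1 in R 4.3.3 fitted 1 model over 32 arrays, with Benjamini-Hochberg adjustment over 27623 probes and calls at an adjusted p under 0.05 and 2-fold. The 3 primary arrays entered no test. A dim probe gave a bound from the lowest signal well above background on its array. The number of arrays limits the precision, and p-values cover the spread between clones, which may be partly technical. Simulated data with 200 probes changed by 2 on the log2 scale gave 73.5% recovered in clones against ES cells and 96% in PαS-iPS against OP-iPS. They gave 95% in 3F against 4F clones and 81.5% in 3F-PαS-iPS against 4F-PαS-iPS. The simulated arrays were independent, without slide effects, while arrays of 1 slide had a consensus correlation of 0.33 in the data. These shares hold for that change only and say nothing of smaller differences.

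The main probe of a gene was its brightest over clones and ES arrays. Named genes were the members, up to 4 per list with the largest and smallest difference (all calls where few), and the 3 most correlated genes of each member. The members and lists were chosen with earlier results of these data known. The alternatives were normexp background with an offset of 50, quantile normalisation, the authors' table, no filter on dim probes, no fold minimum, slide as a fixed or random block, the replicate number as a block, other probes, and leaving out each array or the 3 clones that lacked Sox2. Leaving out 4F-OP-iPS #2 as well was added after seeing the data. RefSeq tables gave the let-7 sequences.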

Additional observations from a re-analysis of the deposited data

Results flagged for a closer look

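Among 84 sets of 5 clones (14 probes in 6 groups), 2 held a lone value far from the other 4, where chance alone would give about 1 in 20. Hmga1 was 5.18 in 4F-OP-iPS #2, and the other 4F-OP-iPS clones lay between 7.48 and 7.90. Igf2bp1 A_52_P620742 was -0.58 in 4F-TTF-iPS #4, and the other 4F-TTF-iPS clones lay between -0.06 and 0.01.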

How the results depend on the processing

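The 8 calls between clones and ES cells became 5 to 9 when 1 array was left out, with 5 reached without EB-3. With normexp background they were 6, Igf2bp3 A_52_P271232 at -0.90 and Hmga2 A_51_P288315 at 0.92 (adjusted p = 0.084) being lost, and with quantile normalisation 9. With 1 array left out Lin28 ranged from -2.21 to -0.86, Hmga2 from -0.53 to 4.36 on A_52_P300730 and from -0.62 to 4.51 on A_51_P288315, the lower ends of Hmga2 being without EB-3. The Hmga2 probe A_52_P373357 gave -1.46 beside 1.92 and 1.95 on the others. Its value has no exact size, since 13 of 30 clones were not well above background on it. The 1 call between PαS-iPS and OP-iPS became 0 with normexp background, 3 without the fold minimum, 2 with slide as a fixed block, 3 with slide as a random block, 0 without the clones that lacked Sox2 and 0 without 4F-OP-iPS #2 as well, a setting chosen after seeing the data. Leaving out 1 array gave 1 to 3, with a count above 1 without 3F-OP-iPS #2, #4 or #5, 4F-OP-iPS #2, #4 or #5, 3F-PαS-iPS #1 or #2, or 4F-PαS-iPS #1, #3, #4 or #5. Under these omissions A_52_P620742 kept a difference between 1.01 and 1.32, and the causes were not tested. Without the fold minimum 3F against 4F had 3 calls in place of 0, and 3F-OP-iPS against 4F-OP-iPS had 2 in place of 0. Igf2bp3 A_51_P302336 and A_52_P508974 remained called against ES cells under every alternative run. Over all tested probes, normexp background called 5157 in place of 10001 between clones and ES cells. It called 163 in place of 443 between PαS-iPS and OP-iPS and 415 in place of 1475 between 3F and 4F clones. Slide as a random block called 395 between 3F and 4F clones and 419 between PαS-iPS and OP-iPS. Slide as a fixed block called 275 between PαS-iPS and OP-iPS. Clones with the same number shared only a number: 16 of 75 pairs had a correlation of deviations over 0.1, and with the replicate block the calls were 8 and 1, as without it. Slide as a fixed block gave values only for PαS-iPS against OP-iPS and 3F against 4F in TTF-iPS, since the slides did not link the groups of the other comparisons, and the TTF-iPS value rests on a chain of slides through PαS-iPS and OP-iPS clones. Of 10 calls of pathway genes between clone groups, 2 were still called with slide as a random block, 0 of the 3 that could be fitted with it as a fixed block, 4 without the clones that lacked Sox2 and 7 with normexp background. Probes near background, such as A_52_P373357, limit what low levels can show.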
